A study of Ovis aries with 10 samples.

Results

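Glutamate is the main excitatory transmitter of the brain, and 29 genes that encode its receptors, its transporters and the enzyme glutamine synthetase were followed in the mediobasal hypothalamus of the ewe across the ovarian cycle. They were taken by gene symbol from a table of read counts for 33775 genes, and all 29 were found. They comprised 6 subunits of NMDA receptors, 4 of AMPA receptors, 5 of kainate receptors, 1 delta receptor subunit, 6 metabotropic receptors, 3 vesicular transporters, 3 transporters of the plasma membrane and glutamine synthetase. The ewes were adults of the Ile-de-France breed. The luteal group was made of 10 ewes in the luteal phase, when the corpus luteum secretes progesterone, and the follicular group of 10 other ewes in the follicular phase, when that hormone is low. RNA of 2 ewes was combined at random in equal amounts for each sequencing library, which gave 5 luteal and 5 follicular libraries, so the spread between libraries is that between mixes of separate animals. How the phase of each ewe was determined was not given in the sources used here.

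Ionotropic glutamate receptors are ion channels assembled from subunits, and metabotropic receptors act through G proteins. Vesicular transporters load glutamate into synaptic vesicles, transporters of the plasma membrane clear it from the synapse, mostly into astrocytes, and glutamine synthetase converts it there to glutamine, which returns to neurons. In the mediobasal hypothalamus, home of the arcuate nucleus and of the median eminence, glutamate excites the neurons that drive the secretion of gonadotropin-releasing hormone. The series title names progesterone, and the comparison made here sets luteal ewes beside follicular ones.

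Library totals ran from 28571863 to 42358557 reads in luteal and from 20644992 to 43193449 reads in follicular libraries. Levels are given as CPM, read counts divided by the scaled library total and set to a common total, and fold changes are luteal over follicular on the log2 scale. CPM does not account for transcript length, so levels of different genes were not ranked. Each of the 8 neuron markers and of the 8 arcuate and ventromedial markers examined was detected and tested, whereas the cortical markers NEUROD6, TBR1, EMX1 and NEUROD2 had at most 13 reads in any library. Of the arcuate and ventromedial markers 2 averaged higher and 6 lower in luteal libraries (median log2 fold change -0.33). All 7 markers of the choroid plexus averaged higher (median 0.58), with sums of 37.6 to 121 CPM in luteal and 25.4 to 58.2 CPM in follicular libraries. One of them, TTR, had 94.2 CPM in luteal 4. Of 6 endothelium markers 5 averaged higher and 1 lower (median 0.19). Their sums overlapped, at 183 to 221 CPM in luteal and 162 to 229 CPM in follicular libraries. Their mean centred log2 CPM did not overlap, at 0.08 to 0.18 in luteal and -0.27 to 0.04 in follicular libraries. Markers of the adjoining pars tuberalis and pituitary summed to 2048 to 4264 CPM in luteal and 2688 to 4325 CPM in follicular libraries. Of these 7 markers 3 averaged higher and 4 lower in luteal libraries, with log2 fold changes from -0.60 in CGA to 1.07 in FSHB. PRL ran from 475 to 2721 CPM in luteal and from 144 to 2020 CPM in follicular libraries. Ribosomal protein genes held 2.13% to 3.15% of the reads in luteal and 2.09% to 3.92% in follicular libraries. The part of these differences in the levels of the glutamate genes was not tested. In RNA of whole tissue, fewer cells of a type and less RNA per cell cannot be told apart.

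With p-values adjusted over all 18276 genes that were tested, edgeR's quasi-likelihood test called none of the 29 genes and 0% of all genes, the smallest adjusted p being 0.426. An unadjusted p under 0.05 was reached by 5 of the 29 (17.2%), against 11.4% of all genes tested. Of these 5, the kainate receptor subunit GRIK3 and the metabotropic receptor GRM3 averaged higher in luteal libraries. The kainate receptor subunit GRIK4, the metabotropic receptor GRM4 and glutamine synthetase, GLUL, averaged lower. By direction this is 2 members higher against 4.27% of all genes, and 3 members lower against 7.12% of all genes. For 1 of the 29 (3.45%), GRIK3, the luteal libraries did not overlap the follicular libraries, against 1.12% of all genes tested, of which 0.607% lay wholly higher, as GRIK3 did, and 0.514% wholly lower, as none of the 29 did. DESeq2 called 0 of the 29 and 0.192% of all genes. Voom with quality weights called 7 of the 29, where it called 32.1% of all genes, so that this count is close to its background. In the whole set 17 members averaged higher and 12 lower in luteal libraries, with a median log2 fold change of 0.06, where 51.5% of all genes tested averaged higher and their median was 0.01.

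**Figure D1:**
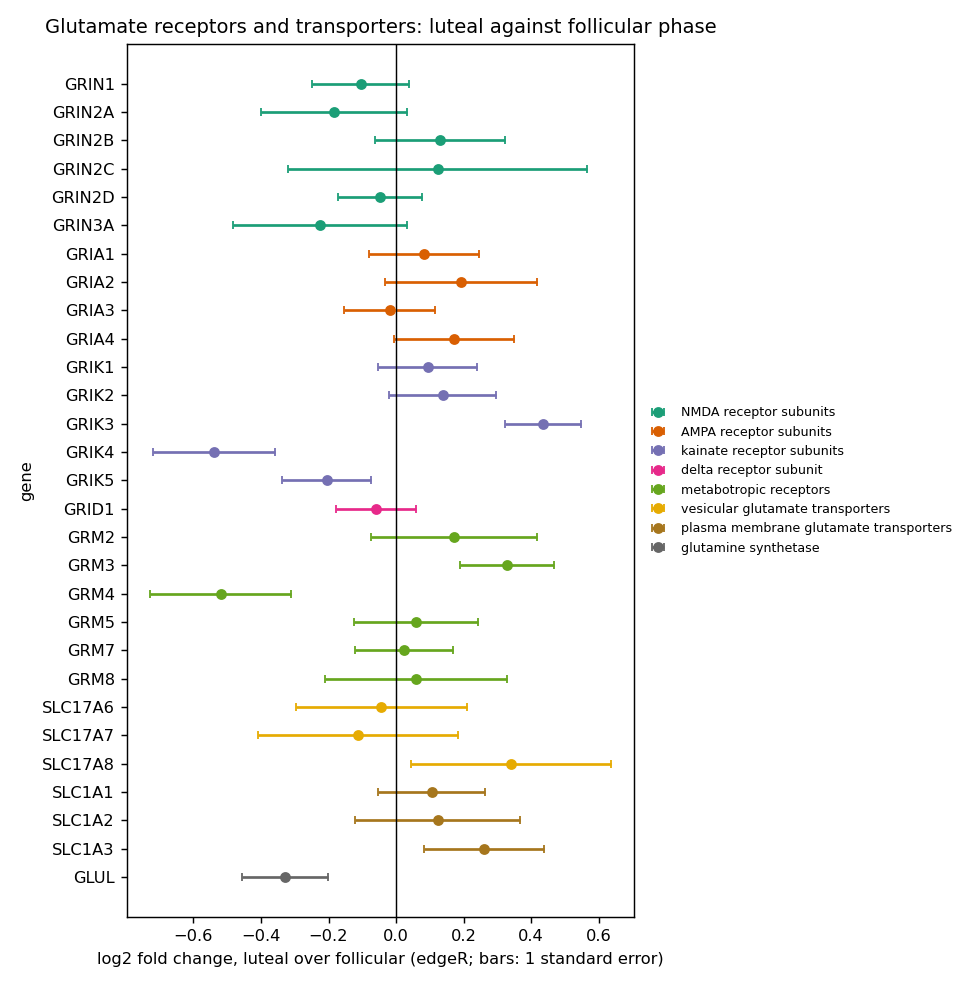
Log2 fold change, luteal over follicular, of each of the 29 genes by edgeR, with bars of 1 standard error and colours for the class of gene. GRIK3 (0.44) lies farthest to the right and GRIK4 (-0.54) and GRM4 (-0.52) farthest to the left, and most other genes lie within 1 standard error of 0.

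The plot of fold changes by class shows small values in most classes. NMDA receptor subunits had a median log2 fold change of -0.08, with 2 of 6 averaging higher, and AMPA receptor subunits one of 0.13, with 3 of 4 averaging higher. For kainate receptor subunits the median was 0.09, with 3 of 5 averaging higher, and for metabotropic receptors 0.06, with 5 of 6 averaging higher. Vesicular transporters had a median of -0.04, with 1 of 3 averaging higher, and all 3 transporters of the plasma membrane averaged higher, with a median of 0.12. Under RLE and upper-quartile scaling each of these 6 medians had the same sign. The kainate class spanned the widest range, from -0.54 to 0.44, and the AMPA class ran from -0.02 to 0.19. When the first principal component was added as a covariate, the median was 0.05 for NMDA, -0.08 for AMPA and -0.11 for metabotropic receptors and -0.03 for plasma membrane transporters, so the signs of these 4 class medians turned. Without follicular 1 and 3, the shallowest libraries, the NMDA median was 0.035, the AMPA median -0.015 and the metabotropic median -0.029. By voom the metabotropic median was -0.0025, and with a filter of 1 CPM in 5 libraries, which removes SLC17A7, the vesicular median was 0.15. Without luteal 1 the metabotropic median was -0.0076, and without follicular 5 the vesicular median was 0.12, without luteal 4 0.11 and without luteal 2 0.022.

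Kainate receptors modulate transmitter release and excitability on both sides of the synapse. Their subunits GRIK1, GRIK2 and GRIK3 can form channels by themselves, whereas GRIK4 and GRIK5 form channels only together with one of these. GRIK3 had 70.2, 84.6, 83.6, 70.5 and 77.0 CPM in luteal libraries 1 to 5, against 51.7, 60.4, 53.4, 49.7 and 69.7 CPM in follicular libraries 1 to 5. Every luteal library thus lay above every follicular one, with luteal 1 and follicular 5 almost touching. GRIK3 averaged 77.2 ± 6.90 CPM in luteal and 57.0 ± 8.19 CPM in follicular libraries (SD, n = 5 per phase), a log2 fold change of 0.44 (SE 0.11; edgeR, unadjusted p = 0.00223, adjusted p = 0.426). By DESeq2 its adjusted p was 0.083. It rested on 1006 to 3271 reads per library, so counting error is small beside the spread between libraries.

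GRIK4 had 24.2, 14.4, 13.6, 17.5 and 12.1 CPM in luteal libraries 1 to 5, against 25.5, 21.5, 26.1, 24.9 and 21.2 CPM in follicular libraries 1 to 5. Luteal 1 lay inside the follicular range, and the other 4 luteal libraries lay below it. GRIK4 averaged 16.4 ± 4.82 CPM in luteal and 23.8 ± 2.32 CPM in follicular libraries, a log2 fold change of -0.54 (SE 0.18; edgeR, unadjusted p = 0.0114, adjusted p = 0.426). Adding the first principal component to the fit gave -0.33 for GRIK4 and 0.29 for GRIK3.

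GRIK5 had 128, 116, 113, 133 and 106 CPM in luteal libraries 1 to 5, against 157, 126, 155, 149.7 and 99.3 CPM in follicular libraries 1 to 5. All luteal libraries lay inside the follicular range, whose lowest value was that of follicular 5, and none reached the follicular median. The log2 fold change of GRIK5 was -0.21 (SE 0.13; edgeR, adjusted p = 0.457). GRIK1 averaged 18.8 ± 3.37 CPM (12.9 to 21.2) in luteal and 17.6 ± 1.67 CPM (15.7 to 19.8) in follicular libraries. GRIK2 averaged 26.7 ± 5.14 CPM (18.3 to 31.6) in luteal and 24.3 ± 3.78 CPM (20.9 to 29.9) in follicular libraries. Luteal 4 gave the lowest value of both genes, and the phases overlapped.

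**Figure D2:**
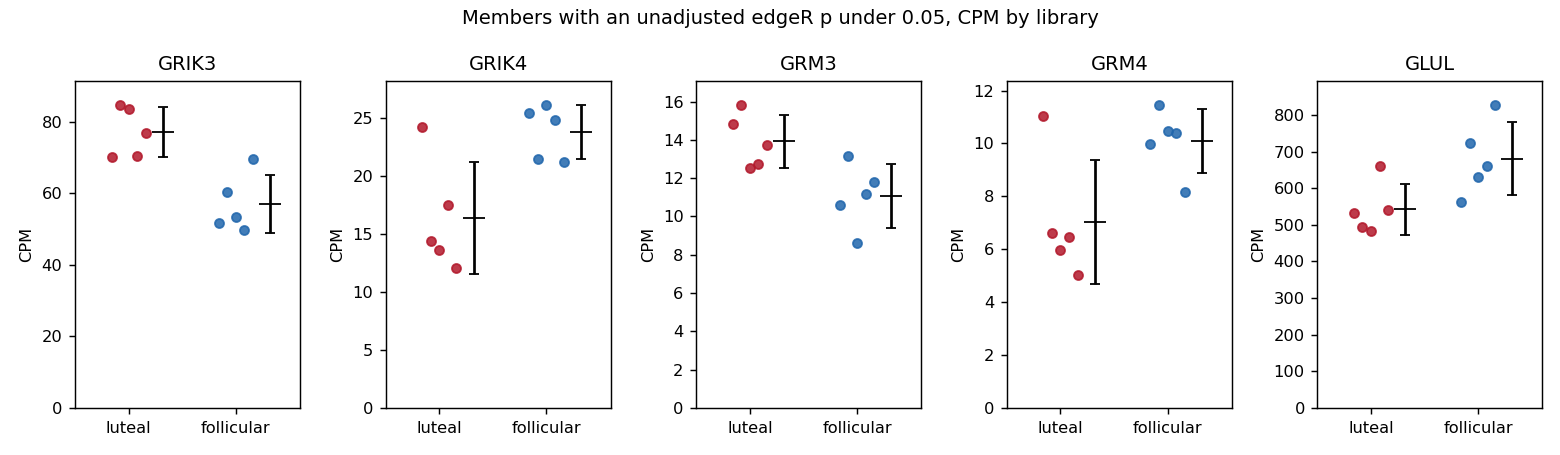
CPM in each library of the 5 genes with an unadjusted edgeR p under 0.05, with luteal libraries in red, follicular libraries in blue, and black bars for the mean and SD of 5 libraries. GRIK3 is the single gene of these whose phases do not overlap, and luteal 1 stands with the follicular libraries in GRIK4 and GRM4.

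Metabotropic receptors of group II (GRM2, GRM3) and group III (GRM4, GRM7, GRM8) lower cyclic AMP and restrain transmitter release, and GRM5, of group I, couples to phospholipase C. GRM3, which is found on neurons and on astrocytes, had 14.8, 15.8, 12.5, 12.7 and 13.7 CPM in luteal libraries 1 to 5, against 10.6, 13.2, 8.60, 11.2 and 11.8 CPM in follicular libraries 1 to 5. Every luteal library lay above the follicular median, and 2 of them lay within the follicular range. GRM3 averaged 13.9 ± 1.39 CPM in luteal and 11.1 ± 1.68 CPM in follicular libraries, a log2 fold change of 0.33 (SE 0.14; edgeR, unadjusted p = 0.0358, adjusted p = 0.426). Without follicular 1 and 3 this value was 0.21.

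GRM4, a presynaptic receptor, had 11.1, 6.60, 5.96, 6.48 and 5.04 CPM in luteal libraries 1 to 5, against 9.99, 11.4, 10.5, 10.4 and 8.17 CPM in follicular libraries 1 to 5. As with GRIK4, luteal 1 lay among the follicular libraries and the other 4 luteal libraries lay below all of them. GRM4 averaged 7.03 ± 2.33 CPM in luteal and 10.1 ± 1.20 CPM in follicular libraries, a log2 fold change of -0.52 (SE 0.21; edgeR, unadjusted p = 0.028, adjusted p = 0.426). Adding the first principal component to the fit gave -0.32.

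GRM5 had 16.9, 13.3, 15.8, 8.56 and 15.3 CPM in luteal libraries 1 to 5, against 11.7, 12.8, 13.2, 12.4 and 16.8 CPM in follicular libraries 1 to 5. The phases overlapped, with luteal 4 lowest of all 10 libraries (log2 fold change 0.06, SE 0.18; edgeR, adjusted p = 0.875). The other 3 receptors overlapped between the phases too. GRM2 averaged 1.98 ± 0.514 CPM (1.27 to 2.68) in luteal and 1.75 ± 0.417 CPM (1.17 to 2.16) in follicular libraries. GRM7 averaged 17.9 ± 2.73 CPM (13.1 to 19.9) in luteal and 17.6 ± 2.57 CPM (15.5 to 22.1) in follicular libraries. GRM8 averaged 3.49 ± 1.11 CPM (1.69 to 4.37) in luteal and 3.33 ± 0.848 CPM (2.71 to 4.60) in follicular libraries. Their log2 fold changes were 0.17 (SE 0.25) for GRM2, 0.02 (SE 0.15) for GRM7 and 0.06 (SE 0.27) for GRM8. Intervals of 2 SE either side ran from -0.32 to 0.66 for GRM2, from -0.27 to 0.32 for GRM7 and from -0.48 to 0.60 for GRM8, so for GRM2 and GRM8 a difference of about the size seen in GRM4 lay within the interval in at least 1 direction.

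NMDA receptors need glutamate and a co-agonist, glycine or D-serine, and contain the obligatory subunit GRIN1. GRIN1 had 390.3, 329, 266, 312 and 234 CPM in luteal libraries 1 to 5, against 359, 303, 365, 348 and 272 CPM in follicular libraries 1 to 5. The luteal libraries spread wider than the follicular ones on both sides (log2 fold change -0.10, SE 0.14; edgeR, adjusted p = 0.698). With 2 SE either side the interval ran from -0.39 to 0.18.

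GRIN2A and GRIN2B bind glutamate and set the kinetics of the channel. GRIN2A had 5.00, 3.31, 4.03, 2.59 and 3.34 CPM in luteal libraries 1 to 5, against 4.05, 3.52, 3.87, 3.52 and 5.73 CPM in follicular libraries 1 to 5 (log2 fold change -0.18, SE 0.22; edgeR, adjusted p = 0.649). GRIN2B had 10.3, 9.50, 11.1, 6.67 and 10.6 CPM in luteal libraries 1 to 5, against 10.2, 9.35, 7.005, 6.55 and 10.8 CPM in follicular libraries 1 to 5 (log2 fold change 0.13, SE 0.19; edgeR, adjusted p = 0.72). In both genes the phases overlapped. The table lists GRIN2B under identifier 121819201, with 132 to 497 reads per library, while a further identifier, 101118179, is given this name by the assembly ARS-UI_Ramb_v3.0 and had 3 to 22 reads. Identifier 121819201 is absent from the genes of that assembly, so which identifier holds GRIN2B in the authors' annotation is uncertain. The GRIN2B values given here and the ratio of GRIN2A to GRIN2B rest on 121819201. With the reads of both combined the log2 fold change of GRIN2B was 0.13.

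GRIN3A, a glycine-binding subunit that lowers the calcium permeability of the channel, had 9.15, 6.34, 6.44, 3.74 and 3.98 CPM in luteal libraries 1 to 5, against 7.79, 7.81, 8.38, 5.36 and 5.40 CPM in follicular libraries 1 to 5. The luteal libraries held both the highest and the lowest value of the 10 (log2 fold change -0.23, SE 0.26; edgeR, adjusted p = 0.64). GRIN2D, a subunit of slowly closing channels, averaged 26.1 ± 2.25 CPM (22.7 to 28.8) in luteal and 27.0 ± 4.24 CPM (20.997 to 32.9) in follicular libraries. GRIN2C had 10 to 71 reads per library and averaged 1.01 ± 0.480 CPM (0.585 to 1.74) in luteal and 0.942 ± 0.490 CPM (0.305 to 1.39) in follicular libraries. At that depth its log2 fold change of 0.12 had an SE of 0.44.

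AMPA receptors carry most of the fast excitatory current, and the subunit GRIA2 makes them nearly impermeable to calcium. GRIA1 had 117, 121, 119, 85.1 and 115 CPM in luteal libraries 1 to 5, against 86.4, 119, 89.7, 84.7 and 145 CPM in follicular libraries 1 to 5. Of the luteal libraries 4 lay close together and luteal 4 lay far below them, near the lowest follicular values (log2 fold change 0.08, SE 0.16; edgeR, adjusted p = 0.798). GRIA2 had 27.6, 27.4, 36.4, 20.8 and 37.9 CPM in luteal libraries 1 to 5, against 19.6, 27.9, 20.7, 21.7 and 41.1 CPM in follicular libraries 1 to 5. Every luteal value lay inside the follicular range, which follicular 5 widened at its top (log2 fold change 0.19, SE 0.23; edgeR, adjusted p = 0.648). GRIA4 had 10.7, 9.65, 12.1, 7.82 and 10.2 CPM in luteal libraries 1 to 5, against 7.12, 10.5, 7.91, 7.57 and 11.6 CPM in follicular libraries 1 to 5 (log2 fold change 0.17, SE 0.18; edgeR, adjusted p = 0.61). GRIA3 averaged 22.7 ± 3.76 CPM (16.7 to 26.7) in luteal and 23.0 ± 2.38 CPM (19.6 to 25.9) in follicular libraries, and its log2 fold change of -0.02 was 0.0024 under upper-quartile scaling. The delta receptor subunit GRID1, which binds cerebellins at synapses, had 36.2, 31.7, 27.4, 28.8 and 25.2 CPM in luteal libraries 1 to 5, against 30.5, 33.2, 27.1, 30.3 and 34.4 CPM in follicular libraries 1 to 5 (log2 fold change -0.06, SE 0.12; edgeR, adjusted p = 0.803). In none of these 5 genes were the phases apart.

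**Figure D3:**
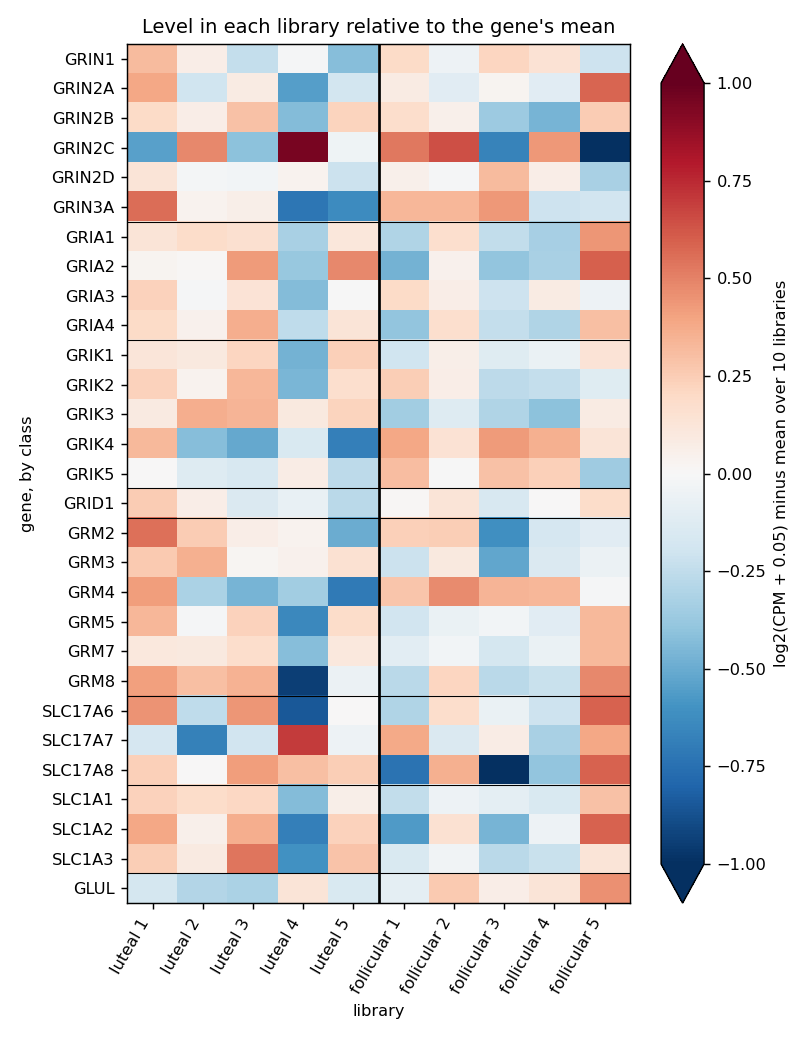
Level of each of the 29 genes in each library, as log2(CPM + 0.05) minus the gene's mean over all 10 libraries, with luteal libraries left and follicular libraries right of the black line. Luteal 4 is blue in all 4 AMPA and all 3 plasma membrane transporter genes, and follicular 5 is red in all 3 transporter genes and in 3 of the 4 AMPA genes.

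The map of levels by library shows that luteal 4 and follicular 5 each went one way across many of the genes. Luteal 4 was the lowest of the luteal libraries in 16 of the 29 genes and the highest in 4, and follicular 5 was the highest of the follicular libraries in 18 and the lowest in 6. As the mean over a list's genes of centred log2 CPM, the AMPA subunits stood at -0.35 in luteal 4 and at 0.06 to 0.27 in the other luteal libraries, and at 0.32 in follicular 5 and -0.27 to 0.11 in the other follicular libraries. The plasma membrane transporters stood at -0.57 in luteal 4 and at 0.11 to 0.37 in the other luteal libraries. Follicular 5 stood at 0.34 and the other follicular libraries at -0.32 to 0.02. On the same scale the 8 neuron markers stood at -0.26 in luteal 4 and -0.08 to 0.17 in the other luteal libraries, and at 0.18 in follicular 5 and -0.09 to 0.15 in the other follicular libraries. Of the 8 neuron markers 5 averaged higher and 3 lower in luteal libraries (median log2 fold change 0.001). An unadjusted p under 0.05 was reached by 2, both lower, where 7.12% of all genes tested reached one and were lower. They were RBFOX3 (-0.45; edgeR, unadjusted p = 0.0297, adjusted p = 0.426) and SYP (-0.32; edgeR, unadjusted p = 0.0451, adjusted p = 0.426). The neuron markers summed to 1494 to 1937 CPM in luteal and 1794 to 1875 CPM in follicular libraries, and none of them was at 0. Their part in the levels of the glutamate genes was not tested.

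Of the vesicular transporters, SLC17A6 is the main one of hypothalamic glutamate neurons, SLC17A7 that of cortical neurons, and SLC17A8 is also found in neurons that use other transmitters. SLC17A6 had 22.0, 13.5, 21.9, 8.92 and 16.2 CPM in luteal libraries 1 to 5, against 13.0, 18.2, 15.4, 13.9 and 24.2 CPM in follicular libraries 1 to 5. The phases overlapped, with luteal 4 lowest and follicular 5 highest of all (log2 fold change -0.04, SE 0.25; edgeR, adjusted p = 0.935). SLC17A7 had 0.756, 0.518, 0.741, 1.42 and 0.824 CPM in luteal libraries 1 to 5, against 1.13, 0.770, 0.902, 0.674 and 1.13 CPM in follicular libraries 1 to 5, from 17 to 58 reads per library. Here luteal 4 was the highest library (log2 fold change -0.11, SE 0.30; edgeR, adjusted p = 0.851). SLC17A8 had 2.88, 2.43, 3.25, 3.01 and 2.90 CPM in luteal libraries 1 to 5, against 1.43, 3.12, 1.17, 1.84 and 3.68 CPM in follicular libraries 1 to 5. All luteal values of SLC17A8 lay within the much wider follicular range (log2 fold change 0.34, SE 0.30; edgeR, adjusted p = 0.548). Its log2 fold change was 0.60 without follicular 5, 0.22 without follicular 1, 0.18 without follicular 3 and 0.0063 without both follicular 1 and 3, and 0.060 with the first principal component in the fit.

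SLC1A2 and SLC1A3 are the glutamate transporters of astrocytes, and SLC1A1 is that of neurons. SLC1A3 had 469, 420.2, 573, 260.3 and 482 CPM in luteal libraries 1 to 5, against 356, 386, 327, 339 and 432 CPM in follicular libraries 1 to 5. Luteal 4 lay below all follicular libraries and 3 luteal libraries above all of them, and SLC1A3 averaged 441 ± 115 CPM in luteal and 368 ± 42.0 CPM in follicular libraries (SD). Its log2 fold change was 0.26 (SE 0.18; edgeR, adjusted p = 0.475). The log2 fold change of SLC1A3 was 0.40 without luteal 4, 0.15 without luteal 3 and 0.059 with the first principal component in the fit, and it passed in none of these. SLC1A2 had 78.5, 61.9, 77.2, 37.3 and 70.4 CPM in luteal libraries 1 to 5, against 40.4, 66.5, 43.4, 57.7 and 90.2 CPM in follicular libraries 1 to 5 (log2 fold change 0.12, SE 0.24; edgeR, adjusted p = 0.799). SLC1A1 had 17.1, 16.6, 16.8, 10.8 and 15.2 CPM in luteal libraries 1 to 5, against 12.3, 14.1, 13.6, 13.1 and 17.9 CPM in follicular libraries 1 to 5 (log2 fold change 0.11, SE 0.16; edgeR, adjusted p = 0.726). In all 3 transporters luteal 4 was the lowest of the 10 libraries and the phases overlapped.

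Glutamine synthetase, GLUL, had 534, 493, 483, 660.1 and 541 CPM in luteal libraries 1 to 5, against 563, 723, 630.0, 661 and 827 CPM in follicular libraries 1 to 5. Apart from luteal 4, every luteal library lay below every follicular one. GLUL averaged 542 ± 70.4 CPM in luteal and 681 ± 99.96 CPM in follicular libraries (SD, n = 5 per phase), a log2 fold change of -0.33 (SE 0.13; edgeR, unadjusted p = 0.0243, adjusted p = 0.426). SLC1A2 and SLC1A3, which astrocytes also express, averaged higher in luteal libraries, and none of the 3 genes passed. Of 10 astrocyte markers 4 averaged higher and 6 lower in luteal libraries, with a median log2 fold change of -0.13. These markers summed to 3282 to 5387 CPM in luteal and 4377 to 5661 CPM in follicular libraries, and none was at 0. Most of the sum came from GFAP, which averaged 2804 CPM in luteal and 3568 CPM in follicular libraries. As the mean of centred log2 CPM, in which each gene weighs the same, the astrocyte markers stood at -0.19 to 0.26 in luteal libraries. In follicular libraries they stood at -0.33 to 0.21. GLUL is also made by oligodendrocytes, of whose 8 markers 2 averaged higher and 6 lower in luteal libraries (median log2 fold change -0.29), with sums of 554 to 1359 CPM in luteal and 864 to 1467 CPM in follicular libraries. Of 7 markers of tanycytes and ependyma, which line the ventricle, 4 averaged higher and 3 lower in luteal libraries (median log2 fold change 0.004). They summed to 379 to 661 CPM in luteal and 351 to 623 CPM in follicular libraries. The part of any of these cells in the levels of GLUL, SLC1A2 and SLC1A3 was not tested.

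Ratios of 2 members within a library do not depend on how the libraries are scaled, and 4 were tested. The log2 ratio of GRIN2A to GRIN2B read counts was -1.05, -1.52, -1.46, -1.36 and -1.66 in luteal libraries 1 to 5, against -1.34, -1.41, -0.85, -0.89 and -0.92 in follicular libraries 1 to 5. It averaged -1.41 ± 0.23 in luteal and -1.08 ± 0.27 in follicular libraries (SD, n = 5 per phase), a difference of -0.33 (exact permutation test, two-sided, p = 0.0635; 0.254 when adjusted over 4 ratios; smallest possible p 0.00794). In 3 of the 5 follicular libraries GRIN2A was higher relative to GRIN2B than in any luteal library. The other differences were smaller, at -0.12 for GRIA1 over GRIA2 (exact permutation p = 0.341, adjusted p = 0.683), -0.08 for SLC17A7 over SLC17A6 (exact permutation p = 0.881, adjusted p = 0.881) and 0.08 for SLC1A3 over SLC1A2 (exact permutation p = 0.651, adjusted p = 0.868).

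**Figure D4:**
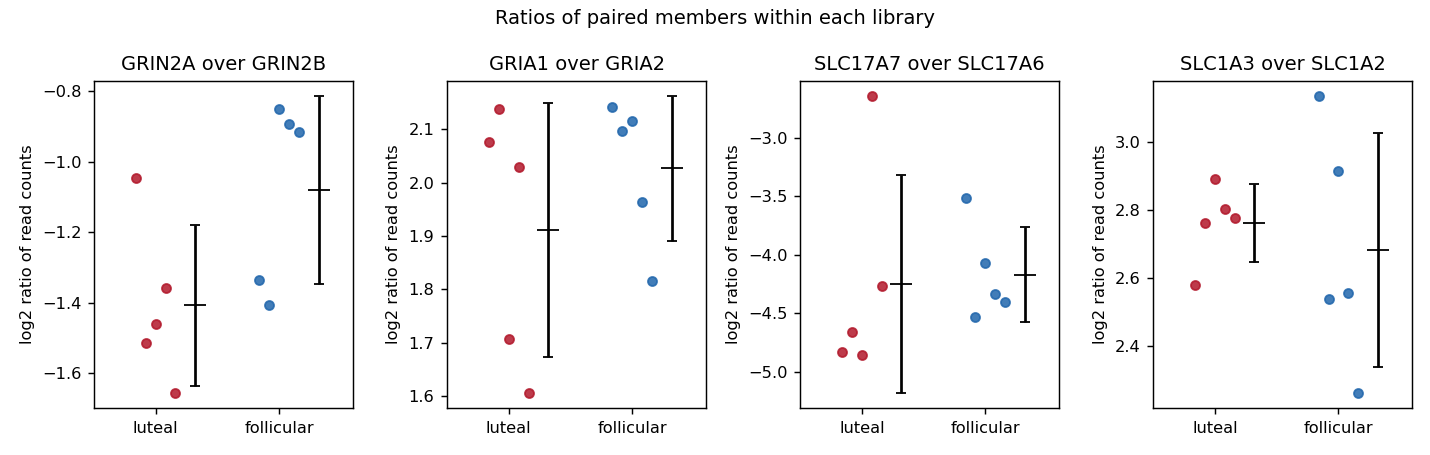
Log2 ratio of the read counts of 2 genes in each library, with luteal libraries in red, follicular libraries in blue, and black bars for the mean and SD of 5 libraries. The phases overlap in all 4 ratios, and luteal 4 (-2.64) stands above all other libraries in SLC17A7 over SLC17A6.

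Other genes of glutamate signalling were read from the same fit as 5 lists, and none of their tested genes passed after adjustment. Of 15 auxiliary subunits of AMPA and kainate receptors 5 averaged higher and 10 lower in luteal libraries (median log2 fold change -0.12), and 2 had an unadjusted p under 0.05, both lower, where 11.4% of all genes tested had one and 7.12% had one and were lower. CNIH2, a cornichon protein that slows the closing of AMPA receptors, had 254, 199.7, 164, 213 and 143 CPM in luteal libraries 1 to 5, against 331, 279, 311, 326 and 173 CPM in follicular libraries 1 to 5. Follicular 5 lay among the luteal libraries of CNIH2, whose log2 fold change was -0.54 (SE 0.19; edgeR, unadjusted p = 0.0165, adjusted p = 0.426). SHISA9, which modulates AMPA receptor desensitisation, averaged 26.4 ± 5.28 CPM in luteal and 35.0 ± 7.16 CPM in follicular libraries (log2 fold change -0.40, SE 0.17; edgeR, unadjusted p = 0.0357, adjusted p = 0.426).

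Of 20 postsynaptic scaffolds and kinases 9 averaged higher and 11 lower (median log2 fold change -0.01). DLGAP3, a scaffold protein of the postsynaptic density, averaged 48.3 ± 10.0 CPM in luteal and 60.7 ± 6.36 CPM in follicular libraries (log2 fold change -0.33, SE 0.14; edgeR, unadjusted p = 0.04, adjusted p = 0.426), and was the 1 gene of the 20 with an unadjusted p under 0.05, a smaller share than the 11.4% of all genes tested. HOMER3, which links metabotropic receptors to the scaffold, averaged 40.8 ± 14.5 CPM in luteal and 55.2 ± 5.39 CPM in follicular libraries (log2 fold change -0.44, SE 0.21; edgeR, adjusted p = 0.426).

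Of 11 genes of glutamate and glutamine metabolism and glutamine transport 6 averaged higher and 5 lower (median log2 fold change 0.11), led by GOT1, the cytosolic aspartate aminotransferase (-0.20, SE 0.10; edgeR, adjusted p = 0.43), and SLC7A11, the cystine and glutamate exchanger (0.39, SE 0.26; edgeR, adjusted p = 0.473). In GOT2, the mitochondrial aspartate aminotransferase, singled out after its values were seen, the luteal libraries (127 to 133.8 CPM) lay below the follicular libraries (133.9 to 145 CPM), with a log2 fold change of -0.06 (SE 0.07; edgeR, adjusted p = 0.629). Of 8 tested genes that supply or remove NMDA receptor co-agonists 3 averaged higher and 5 lower (median -0.08), led by SHMT2, a mitochondrial enzyme that interconverts serine and glycine (-0.15, SE 0.10; edgeR, adjusted p = 0.458), and SLC6A9, a glycine transporter (-0.24, SE 0.17; edgeR, adjusted p = 0.496). Of 6 further tested genes outside the 29, 3 averaged higher and 3 lower (median 0.02), led by SLC1A6 (-0.25, SE 0.18; edgeR, adjusted p = 0.482) and GRINA (-0.16, SE 0.12; edgeR, adjusted p = 0.495). All of them but GRINA belong to the receptor and transporter families. The metabotropic receptor GRM6 had 2 to 13 reads in luteal and at most 1 read in follicular libraries, and SLC6A5, a glycine transporter of inhibitory neurons, had at most 7 reads in any library, and neither was tested.

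**Figure D5:**
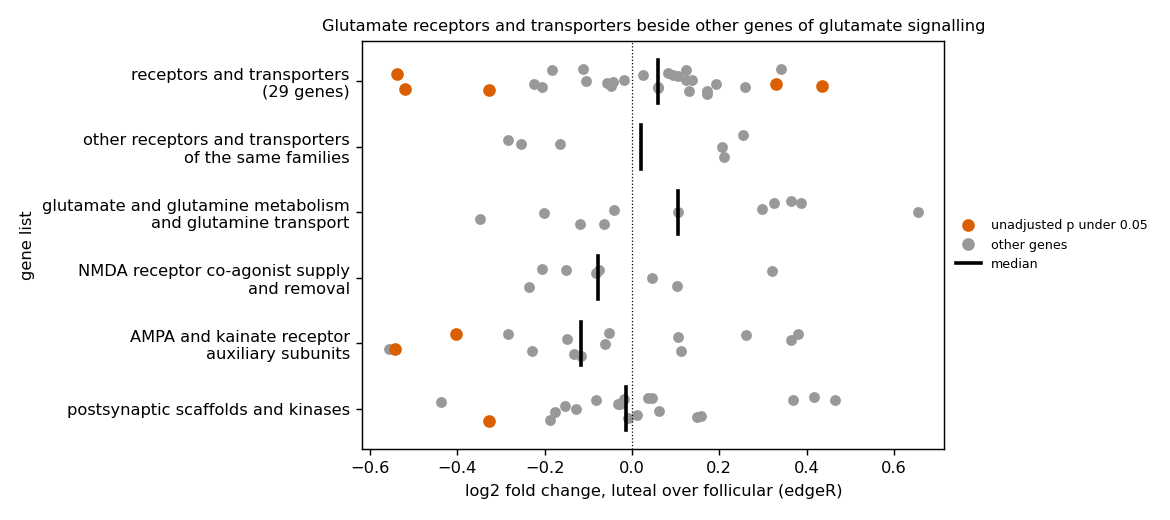
Log2 fold change, luteal over follicular, of the 29 receptor and transporter genes and of the genes of 5 other lists of glutamate signalling, with 1 point per gene, orange for an unadjusted edgeR p under 0.05 and a black line at the median. Medians lie between -0.12 and 0.11, and 3 points of the 5 other lists are orange (CNIH2, SHISA9 and DLGAP3), where 11.4% of all genes tested had such a p.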

How the data were processed

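The authors deposited whole-number read counts per gene, not normalised, for 10 libraries. TriReagent and the TruSeq stranded mRNA kit were used, per the labels' protocols. Per the submitters' processing notes, the tools included TopHat2 2.1.1, Bowtie2 2.3.5.1 and featureCounts 2.0.0. The build, strandedness and how multi-mapped reads were treated are not given in the sources used here, so overlapping genes are uncertain.

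Counts were tested in R 4.3.3 with edgeR 4.0.16 (quasi-likelihood F-test, phase as the only term) after filterByExpr (minimum count 10, minimum total 15) and TMM scaling. Benjamini-Hochberg adjustment covered all 18276 tested genes at a threshold of 0.05, and all 29 members passed the filter. Standard errors are the fold change divided by the root of F. CPM uses the TMM-scaled totals. Ratios used a prior count of 0.5 and exact permutation tests in SciPy 1.17.1. Gene symbols came from the table, and for 492 genes from ARS-UI_Ramb_v3.0. DESeq2 1.42.0 and limma 3.58.1 were alternatives.

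The members, lists and tests were chosen with earlier results of these data known. Library values are given for the members with the smallest p in each class (up to 2) and for a set list, and other lists are represented by up to 2 genes with the smallest p. No pair of libraries agreed within sampling noise (chi-square per degree of freedom at least 12.8). On simulated counts of 18103 genes, drawn independently, the edgeR test recovered 18% of genes changed 1.5-fold and 60% of those changed 2-fold. The changed genes were chosen above a minimum mean read count, so these shares do not cover genes with few reads, such as GRIN2C and SLC17A7.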

Additional observations from a re-analysis of the deposited data

Results flagged for a closer look

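In 66 groups of 5 libraries (29 genes and 4 ratios in each phase), a library stood apart from the rest of its phase in 8, where the gap to its nearest neighbour, divided by the range of the phase, exceeded 0.71. By chance about 1 in 20 groups, here 3.3, would do so.

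Luteal 4 was the library in 4 of the 8. It was lowest in GRIA1 at 85.1 CPM against 115 to 121 CPM in the other luteal libraries (ratio 0.851), in GRIK1 at 12.9 against 19.3 to 21.2 CPM (0.769) and in GRM7 at 13.1 against 18.8 to 19.9 CPM (0.842). It was highest in the log2 ratio of SLC17A7 to SLC17A6, at -2.64 against -4.86 to -4.27 (0.735). Follicular 5 was highest in 3 genes, namely GRIN2A at 5.73 CPM against 3.52 to 4.05 CPM in the other follicular libraries (0.762), GRM5 at 16.8 against 11.7 to 13.2 CPM (0.717) and GRM7 at 22.1 against 15.5 to 17.2 CPM (0.741). Luteal 1 was highest in GRM4 at 11.1 CPM against 5.04 to 6.60 CPM in the other luteal libraries (0.741), and without luteal 1 the log2 fold change of GRM4 was -0.74 and still did not pass edgeR (adjusted p = 0.294).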

How the results depend on the processing

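Of 22 alternatives, 21 called 0 of the 29 genes, and voom with quality weights called 7 (GRIA1, GRIK3, GRIK4, GRIK5, GRM3, GRM4 and GLUL), where it called 32.1% of all genes (5867). DESeq2 called 35 of all genes, and leaving out single libraries gave 0 to 1. GRIK3, GRIK4, GRM3, GRM4 and GLUL were among 11 members that kept their sign throughout, and the other 18 changed it at least once, in 43 of 609 comparisons over all members. The members named were those with an unadjusted p under 0.05 in the same libraries, which favours a kept sign. The share of all genes that kept their sign was not computed. GRIK3 ran from 0.29 to 0.61. Its adjusted p ran from 0.00886 by voom with quality weights to 0.994 by edgeR without follicular 1 and 3. Each of these was the smallest adjusted p of all genes in its fit, so neither is particular to GRIK3. Without follicular 5 its adjusted p was 0.061, where 4527 of 18201 genes and 4 members had one under 0.10 and the smallest was 0.0512.

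With the first principal component (51.0% of the variance) as a covariate the sign changed in GRIN1 (0.11), GRIN2B (-0.041), GRIN2D (0.14), GRIA1 (-0.13), GRIA2 (-0.17), GRIA4 (-0.029), GRIK1 (-0.058), GRIK5 (0.037), GRM5 (-0.086), GRM7 (-0.13), GRM8 (-0.14), SLC1A1 (-0.031) and SLC1A2 (-0.16). Without follicular 1 and 3 it changed in GRIN2D (0.071), GRIA1 (-0.059), GRIA2 (-0.0060), GRM5 (-0.0014), GRM7 (-0.058), GRM8 (-0.10), SLC1A2 (-0.13) and the SLC17A7 to SLC17A6 ratio (0.17). It also changed by voom in GRM7 (-0.0094) and GRM8 (-0.027), with quality weights in GRID1 (0.0093) and with upper-quartile scaling in GRIA3 (0.0024). Scores on the first principal component ran from -14.4 to 58.2 in luteal and from -61.6 to 48.1 in follicular libraries. They were lowest in follicular 3 and follicular 1, where ribosomal protein genes held 3.91% and 3.92% of the reads. They were highest in luteal 5 and follicular 5, where these genes held 2.13% and 2.09%. The cause of the sign changes was not tested. Leaving out single libraries gave -0.16 to 0.33 for GRIN2C, -0.13 to 0.033 for GRIN2D, -0.084 to 0.072 for GRIA3, -0.019 to 0.19 for GRM5, -0.016 to 0.12 for GRM7, -0.035 to 0.23 for GRM8, -0.17 to 0.12 for SLC17A6 and -0.38 to 0.022 for SLC17A7. It gave 0.048 to 0.20 for the kainate median (highest without luteal 4), -0.48 to 0.084 for the SLC17A7 to SLC17A6 ratio and -0.024 to 0.19 for the SLC1A3 to SLC1A2 ratio.

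The mixes were made at random, and the replicate numbers were not taken to pair the libraries. Same-numbered libraries deviated with correlations of 0.36, 0.05, -0.33, 0.28 and 0.63, and only number 5 correlated best with its own. So few correlations cannot exclude a factor shared by number. With the replicate number as a block edgeR called 0 genes (smallest adjusted p = 0.052, GRIK3 0.143). An unadjusted edgeR p under 0.05 was then reached by 4512 genes, against 2083 without the block, and by 5 members in both fits. With the block 0 of the 4 ratios could pass, the smallest possible p being 0.0625. Depth limits GRIN2C and SLC17A7 most, with 10 and 17 reads in their lowest libraries, followed by GRM2 and SLC17A8 with 22 each.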

Other observations

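The pair GRIK3 and GRIK4, and the pair GRM3 and GRM4, were set side by side after their values had been seen, so no test is given. The log2 ratio of GRIK3 to GRIK4 read counts was 1.53, 2.55, 2.61, 2.01 and 2.67 in luteal libraries 1 to 5, against 1.02, 1.49, 1.03, 1.00 and 1.72 in follicular libraries 1 to 5. Luteal 1 and follicular 5 were the libraries that made the phases overlap. The log2 ratio of GRM3 to GRM4 was 0.42, 1.26, 1.07, 0.97 and 1.44 in luteal libraries 1 to 5, against 0.09, 0.20, -0.28, 0.11 and 0.53 in follicular libraries 1 to 5, with the same overlap between luteal 1 and follicular 5. Both ratios are free of the library scaling.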
